A study of Mus musculus with 10 samples.

Results

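The change between days 24 and 17 of differentiation was read in mouse embryonic stem cell cultures that had received no DCI. The comparison sets 2 arrays of day 24, 1 from a culture given keratinocyte growth factor (KGF) and 1 from a control culture, against the 2 arrays of day 17 with the same treatments, each day 24 array paired with the day 17 array of the same KGF status. These are 4 of the 10 arrays of the study. The other 6 came from day 8 (KGF and control) and from cultures with DCI at days 17 and 24 (KGF with DCI, and DCI). All cultures were of the C57BL/6 strain, and the labels give no medium, no supplement beyond KGF and DCI, and no expansion of the name DCI. Each condition has 1 array, so no value has a replicate of its own.

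Embryonic stem cells that leave self-renewal form derivatives of all germ layers in the same dish, and in long cultures dividing precursors give way to differentiated cells that divide less. Mucosal epithelia of lung, stomach and intestine secrete antimicrobial lectins, iron-binding proteins, mucins and protease inhibitors. KGF is the product of Fgf7, made by mesenchyme, and acts on epithelia through an isoform of the receptor encoded by Fgfr2.

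Values are log2 expression units in which a difference of 1 is a 2-fold change, and 1 probe set stands for each of 18193 genes. Differences are day 24 minus day 17, averaged over both pairs, and are followed by their standard error from limma with 3 residual degrees of freedom. The spread behind that error is array noise together with any departure from an additive KGF effect, so the p-values measure only the spread between these arrays. A gene passed at a Benjamini-Hochberg adjusted p under 0.05. The array medians over genes lay between 6.67 and 6.72 at day 24 and between 6.72 and 6.74 at day 17. The difference between the 3′ and 5′ control probe sets, a sign of RNA and labelling quality, lay for Actb between 0.49 and 0.51 at day 24 and between 0.48 and 0.52 at day 17. For pyruvate carboxylase it was 1.84 (KGF) and 1.56 (control) at day 24, against 1.10 (KGF) and 1.24 (control) at day 17, higher on both day 24 arrays. For 18S ribosomal RNA it was -2.06 (KGF) and -1.20 (control) at day 24, against -0.96 (KGF) and -1.18 (control) at day 17, lowest on the day 24 KGF array. What part these differences had in the results was not tested. The deposited values come with no detection call, so a low value may lie at the background of the array, and a fold change is that of the deposited values.

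The cultures carry the label of the embryonic stem cells they started from. The pluripotency genes Pou5f1, Nanog and Dppa3 were lower at day 24 than at day 17. Pou5f1, which encodes Oct4, read 3.97 in the KGF and 3.93 in the control culture at day 24, against 6.00 (KGF) and 5.34 (control) at day 17. The day 24 values lay below both day 17 values, and the difference was -1.72 ± 0.30 (adjusted p = 0.00233). Nanog, another core pluripotency factor, read 4.48 (KGF) and 4.59 (control) at day 24, against 6.55 (KGF) and 5.70 (control) at day 17, and its difference of -1.59 ± 0.43 passed (adjusted p = 0.0217). It became -1.19 (adjusted p = 0.142) without the day 17 KGF array, -1.83 (adjusted p = 0.056) without the day 24 control array and -1.35 (adjusted p = 0.142) without the day 24 KGF array. Dppa3, a germ line and embryonic stem cell gene, fell by 0.94 (adjusted p = 0.00385). Of the pluripotency list, 2 of the 17 measured members passed upward, 4 passed downward and 11 did not pass. Over all genes 11.8% passed upward and 15.8% downward, so these counts are not read as a change of the list. The downward count was 2 without the day 17 KGF array and 2 without the day 24 KGF array. The members that rose were Klf4 (1.56 ± 0.07, adjusted p = 1.28e-06) and Klf2 (0.82 ± 0.09, adjusted p = 1.95e-04), Krüppel-like factors that differentiated epithelium and endothelium also use.

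Between day 24 and day 17, 5008 of 18193 genes passed, which is 27.5% of those tested, with 2140 higher (11.8%) and 2868 lower (15.8%). Every one of the 5008 moved the same way in both pairs. The difference between the pairs enters the spread that the test uses, so a gene with opposite pairs could hardly pass, and this is no separate check. Of the 5008, 682 differed at least 2-fold, 408 higher and 274 lower. The median over all genes was -0.02, and the median standard error of a difference was 0.13. Taken as single arrays with no test, 757 genes differed at least 2-fold in the KGF pair (4.16%) and 783 in the control pair (4.3%). In both pairs and in the same direction there were 471 (2.59%), 278 of them higher (1.53%) and 193 lower (1.06%), while 3 genes differed 2-fold in opposite directions. The count of 5008 was 3174 without the day 17 control array, 3090 without the day 24 control array and 2980 without the day 24 KGF array.

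**Figure D1:**
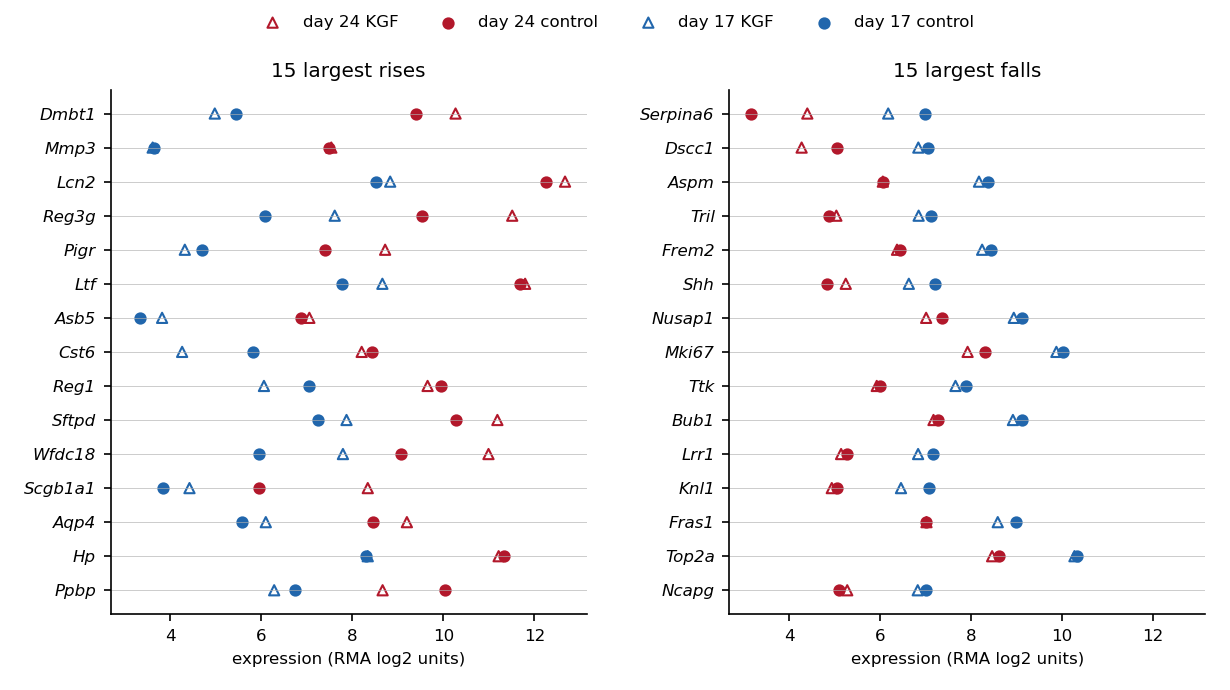
Values of the 15 genes with the largest rises (left panel) and the 15 with the largest falls (right panel), one point per array on an axis of RMA log2 units, with day 24 in red, day 17 in blue, KGF cultures as open triangles and control cultures as filled circles. For every gene in the left panel both red points lie to the right of both blue points, and for every gene in the right panel to the left. The genes were chosen as the largest differences among those that had passed and moved the same way in both pairs.

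Genes of mucosal defence rose the most. Dmbt1, which encodes a secreted scavenger receptor glycoprotein that binds bacteria at mucosal surfaces, read 10.27 in the KGF and 9.39 in the control culture at day 24, against 4.97 (KGF) and 5.44 (control) at day 17. Both day 24 values lay far above both day 17 values, a 24.7-fold difference (4.63 ± 0.24, adjusted p = 2.58e-06). Lcn2, an antibacterial protein that captures bacterial iron carriers, read 12.68 (KGF) and 12.25 (control) at day 24, against 8.83 (KGF) and 8.52 (control) at day 17. The values of each day were close together, and the rise was 13.8-fold (3.79 ± 0.06, adjusted p = 1.40e-09). Reg3g, an antibacterial lectin of the gut and airway lining, read 11.52 (KGF) and 9.53 (control) at day 24, against 7.61 (KGF) and 6.07 (control) at day 17. Its KGF culture lay above its control culture on both days, and the 2 pairs differed by similar amounts (3.68 ± 0.14, adjusted p = 6.40e-07). Pigr, the receptor that carries polymeric immunoglobulin across epithelia, read 8.72 (KGF) and 7.40 (control) at day 24, against 4.32 (KGF) and 4.70 (control) at day 17, with both day 24 values above both day 17 values (3.55 ± 0.37, adjusted p = 1.03e-04). Ltf, the iron-binding protein lactoferrin, read 11.80 (KGF) and 11.68 (control) at day 24, against 8.66 (KGF) and 7.78 (control) at day 17 and rose 11.5-fold (3.52 ± 0.23, adjusted p = 8.45e-06). Hp, which encodes haptoglobin, an acute phase protein that binds free haemoglobin, read 11.22 (KGF) and 11.33 (control) at day 24, against 8.34 (KGF) and 8.30 (control) at day 17, with nearly equal values in the KGF and control cultures of each day (2.95 ± 0.08, adjusted p = 7.18e-08).

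Of the acute phase and mucosal defence list, 14 of the 22 measured members passed upward, 0 passed downward and 8 did not pass. Its median difference was 1.76, the highest of the 48 lists, with 1.95 in the KGF pair and 1.54 in the control pair. Reg3b, a close relative of Reg3g, rose by 2.78 ± 0.18 (adjusted p = 7.24e-06). Reg1, a regenerating-family lectin outside the list, read 9.65 (KGF) and 9.96 (control) at day 24, against 6.06 (KGF) and 7.04 (control) at day 17 (3.26 ± 0.37, adjusted p = 1.98e-04). All 3 genes of that family described here rose. In these bulk cultures fewer or more cells of a type and less or more RNA per cell cannot be told apart, which holds for every result below. The median level of the list was 4.12 (KGF) and 3.84 (control) at day 8, 5.61 (KGF) and 5.58 (control) at day 17 and 8.24 (KGF) and 7.62 (control) at day 24.

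Several secretory products of airway and alveolar epithelium rose, while the gene of the lung lineage factor Nkx2-1 did not pass. Sftpd, which encodes surfactant protein D, a collectin of the lung and other mucosae, read 11.19 in the KGF and 10.29 in the control culture at day 24, against 7.87 (KGF) and 7.25 (control) at day 17. Both day 24 values exceeded both day 17 values, a 9.04-fold difference (3.18 ± 0.16, adjusted p = 1.99e-06). Scgb1a1, the club cell secretory protein, read 8.34 (KGF) and 5.95 (control) at day 24, against 4.42 (KGF) and 3.83 (control) at day 17. It was higher in the KGF culture at day 24 than in the control, and both lay above day 17 (3.02 ± 0.36, adjusted p = 2.65e-04). Nkx2-1, the transcription factor of lung and thyroid endoderm, read 4.57 (KGF) and 4.83 (control) at day 24, against 4.77 (KGF) and 4.48 (control) at day 17, and its difference of 0.08 ± 0.20 did not pass (adjusted p = 0.816). Sftpc, which encodes surfactant protein C, the marker most particular to alveolar type II cells, read 6.89 (KGF) and 5.29 (control) at day 24, against 5.46 (KGF) and 4.38 (control) at day 17. The KGF culture was the higher on each day, and the day 17 KGF value exceeded the day 24 control value, so the 2 days overlapped. The difference of 1.17 ± 0.30 passed (adjusted p = 0.0155), but was 0.80 (adjusted p = 0.124) without the day 17 KGF array, 1.13 (adjusted p = 0.0838) without the day 24 control array and 1.21 (adjusted p = 0.0706) without the day 24 KGF array, and the other Sftpc probe set gave -0.50. Sftpb, which encodes surfactant protein B, stood at 0.37 ± 0.22 and did not pass (adjusted p = 0.248). Napsa, a protease of surfactant maturation, rose by 0.87 ± 0.13 (adjusted p = 0.00119).

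Of the alveolar type II list, 11 of the 20 measured members passed upward, 2 passed downward and 7 did not pass, with a median of 0.52. The upward count was 7 without the day 17 KGF array, 7 without the day 24 control array and 7 without the day 24 KGF array. Il33, an alarmin cytokine stored in epithelial nuclei (1.32 ± 0.09, adjusted p = 7.89e-06), Dram1, a lysosomal membrane protein (1.30 ± 0.09, adjusted p = 1.12e-05), and Muc1, a membrane mucin (1.28 ± 0.14, adjusted p = 1.83e-04), rose and are not confined to that cell type. Of the alveolar type I list, 9 of the 14 measured members passed upward, 2 passed downward and 3 did not pass, with a median of 0.41. Its downward count was 1 without the day 17 control array, 1 without the day 24 control array and 1 without the day 24 KGF array. Aqp5, a water channel of type I cells and glands, read 8.26 (KGF) and 7.60 (control) at day 24, against 7.27 (KGF) and 5.97 (control) at day 17 (1.31 ± 0.19, adjusted p = 9.43e-04). Vegfa, the vascular growth factor, which is also on the hypoxia list, rose by 0.98 ± 0.07 (adjusted p = 1.23e-05), and Sema3a, a secreted guidance protein, fell by 0.91 (adjusted p = 9.60e-04).

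Some airway products differed widely between KGF and control cultures of one day. Cxcl17, a chemokine of mucosal tissues, read 10.36 (KGF) and 8.64 (control) at day 24, against 8.04 (KGF) and 6.41 (control) at day 17, and each pair rose by a similar amount (2.28 ± 0.12, adjusted p = 2.63e-06). Muc5b, the airway gel-forming mucin, read 8.70 (KGF) and 6.59 (control) at day 24, against 5.33 (KGF) and 5.47 (control) at day 17, with the largest value in the day 24 KGF culture (2.24 ± 0.38, adjusted p = 0.00213), and its difference was 1.43 (adjusted p = 0.00549) without the day 17 KGF array. Wfdc2, a secreted protein of airway epithelium with whey acidic protein domains, rose by 1.48 ± 0.12 (adjusted p = 1.91e-05), and Wfdc18, of the same domain family, by 3.17 ± 0.08 (adjusted p = 7.18e-08). Bpifa1, a secreted airway protein, read 10.17 (KGF) and 5.70 (control) at day 24, against 10.38 (KGF) and 6.51 (control) at day 17, with both KGF values far above both control values (difference between days -0.51 ± 0.27, adjusted p = 0.189). The difference passed, at -1.04 (adjusted p = 0.013) without the day 24 KGF array. Foxj1, the regulator of motile cilia, stood at 0.28 ± 0.21 and did not pass (adjusted p = 0.364). Of the airway list, 6 of the 19 measured members passed upward, 2 passed downward and 11 did not pass, with a median of 0.28 (-0.01 in the KGF pair and 0.34 in the control pair). Its downward count was 1 without the day 17 KGF array and 1 without the day 24 KGF array. Aqp4, a water channel of airway and gastric epithelium that is also used by astrocytes, read 9.20 (KGF) and 8.45 (control) at day 24, against 6.10 (KGF) and 5.58 (control) at day 17 (2.99 ± 0.16, adjusted p = 2.90e-06), with other probe sets at 1.17 to 3.09.

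General epithelial genes and keratins rose by smaller amounts in many members. Of the general epithelium list, 16 of the 24 measured members passed upward, 1 passed downward and 7 did not pass, with a median of 0.37 (0.38 in the KGF pair and 0.43 in the control pair). The gene that fell passed no longer without the day 17 KGF, the day 24 control or the day 24 KGF array. Cldn4, a tight junction claudin, read 10.33 (KGF) and 10.08 (control) at day 24, against 9.32 (KGF) and 8.85 (control) at day 17 (1.12 ± 0.08, adjusted p = 1.16e-05). Elf3, an epithelial transcription factor, read 8.70 (KGF) and 8.30 (control) at day 24, against 7.67 (KGF) and 7.23 (control) at day 17 (1.05 ± 0.11, adjusted p = 1.11e-04). For both genes the day 24 values lay above those of day 17. Of the keratins, 10 of the 16 measured members passed upward, 1 passed downward and 5 did not pass, with a median of 0.44, and the downward count was 2 without the day 17 control array and 2 without the day 24 control array. Krt23 rose by 1.71 ± 0.13 (adjusted p = 1.55e-05), and Krt6a, a keratin of stratified and wounded epithelium, by 1.46 ± 0.14 (adjusted p = 6.99e-05). Cst6, a cysteine protease inhibitor of squamous epithelium, read 8.21 (KGF) and 8.44 (control) at day 24, against 4.26 (KGF) and 5.82 (control) at day 17 (3.28 ± 0.25, adjusted p = 1.44e-05).

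Digestive tract genes rose in part. Tff2, a trefoil peptide of gastric mucous neck cells, read 8.61 (KGF) and 8.11 (control) at day 24, against 5.96 (KGF) and 6.12 (control) at day 17, with both day 24 values about 2 units above both day 17 values (2.32 ± 0.13, adjusted p = 3.42e-06). Gkn1, a gastric surface cell product, read 8.91 (KGF) and 8.07 (control) at day 24, against 5.57 (KGF) and 7.26 (control) at day 17, where the day 17 control value lay closer to day 24 than to the day 17 KGF value. Its difference of 2.07 ± 0.63 passed (adjusted p = 0.0356), and was 0.64 (adjusted p = 0.265) without the day 17 KGF array, 2.33 (adjusted p = 0.0925) without the day 24 control array, 1.82 (adjusted p = 0.179) without the day 24 KGF array, 2.07 (adjusted p = 0.0567) without the day 24 DCI array and 2.07 (adjusted p = 0.0569) without the day 24 KGF with DCI array. Of the gastric list, 6 of the 15 measured members passed upward, 0 passed downward and 9 did not pass, with a median of 0.35, and the upward count was 3 without the day 24 control array. Spink4, a goblet cell peptide of the intestine, rose by 1.81 ± 0.08 (adjusted p = 1.28e-06), and Tff3, the intestinal trefoil peptide, by 1.47 ± 0.14 (adjusted p = 5.04e-05). Of the intestinal list, 6 of the 18 measured members passed upward, 2 passed downward and 10 did not pass, with a median of 0.35 (0.29 in the KGF pair and 0.04 in the control pair). The 2 that fell were Cdx2 (-1.05, other probe set -0.01) and Fabp1 (-0.82, other probe set -1.08). The upward count was 3 without the day 24 KGF array and the downward count 0 without the day 17 control array and 0 without the day 24 control array.

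**Figure D2:**
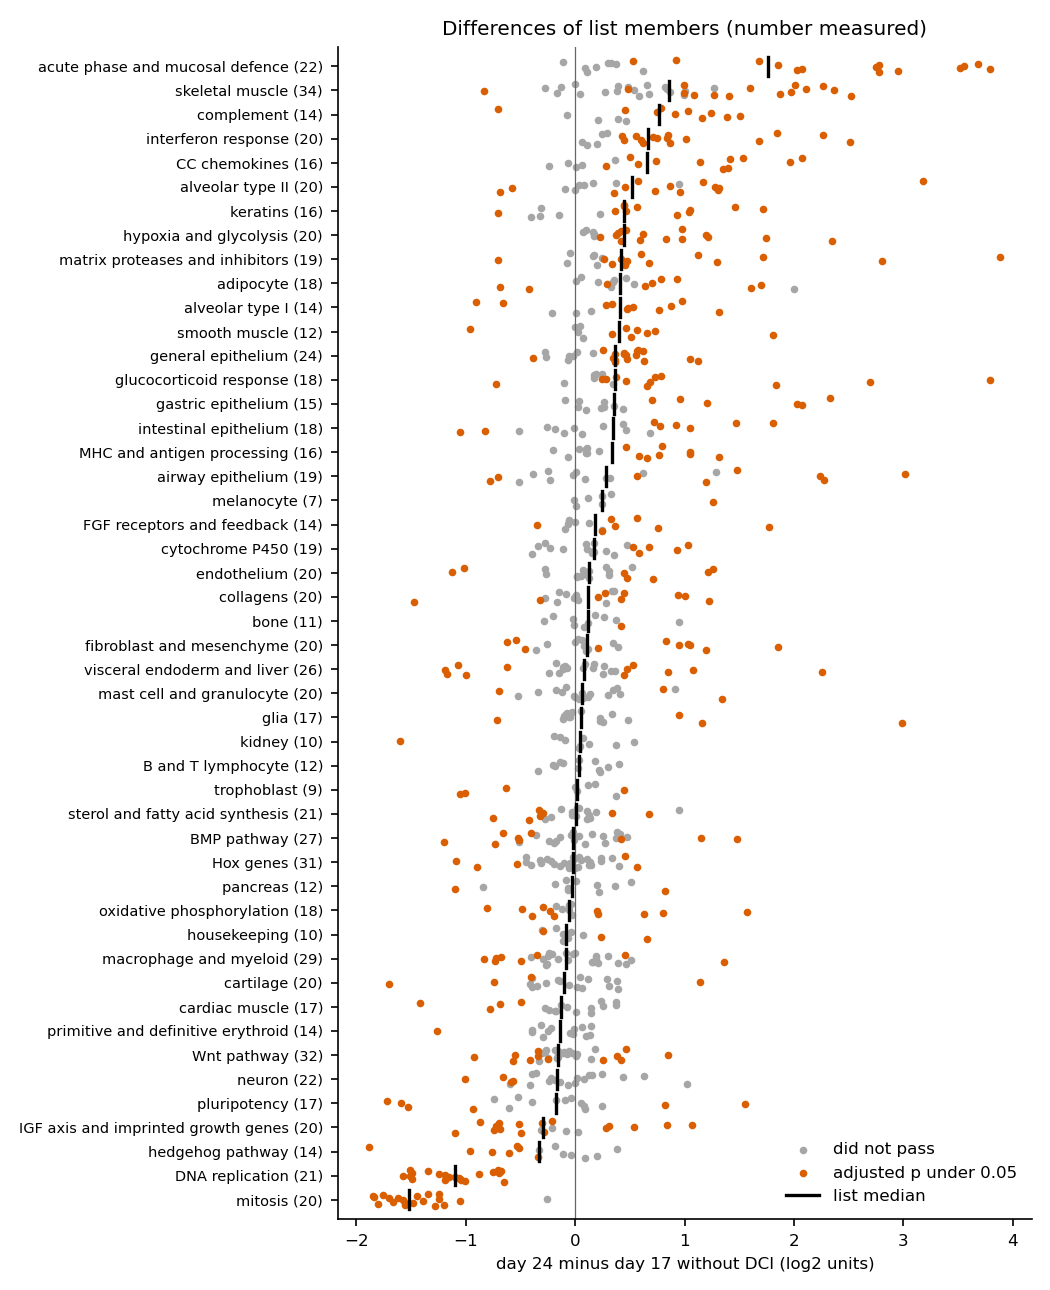
Day 24 minus day 17 differences without DCI, in log2 units, for each measured member of the 48 gene lists, ordered by list median from highest (top) to lowest (bottom), with the number measured in parentheses. Orange points passed the limma test, grey points did not, and black bars are list medians, which run from 1.76 for acute phase and mucosal defence to -1.52 for mitosis.

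Genes of cell division fell together. Of the mitosis list, 0 of the 20 measured members passed upward, 19 passed downward and 1 did not pass, with a median of -1.52 (-1.54 in the KGF pair and -1.46 in the control pair). The member that did not pass, Foxm1, was named after its values were seen. Of the DNA replication list, 0 of the 21 measured members passed upward, 21 passed downward and 0 did not pass, with a median of -1.10 (-1.11 in the KGF pair and -1.14 in the control pair). Leaving out any 1 of the 8 arrays left 19 mitosis genes lower, and between 20 and 21 replication genes. With probe sets averaged per gene the mitosis median was -1.23.

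Mki67, a protein that coats chromosomes of dividing cells, read 7.92 in the KGF and 8.30 in the control culture at day 24, against 9.88 (KGF) and 10.03 (control) at day 17. The 2 days did not overlap, and the value fell 3.59-fold (-1.84 ± 0.11, adjusted p = 4.11e-06). Top2a, the topoisomerase that untangles replicated chromosomes, read 8.46 (KGF) and 8.62 (control) at day 24, against 10.27 (KGF) and 10.32 (control) at day 17 (-1.76 ± 0.07, adjusted p = 7.45e-07), with other probe sets at -0.82 to 0.20. Bub1, a kinase of the spindle checkpoint, read 7.17 (KGF) and 7.26 (control) at day 24, against 8.92 (KGF) and 9.12 (control) at day 17 (-1.80 ± 0.08, adjusted p = 1.35e-06), with its other probe set at -0.27. For Top2a and Bub1, as for Mki67, KGF and control cultures of a day lay close together and far from both cultures of the other day. Aspm, a spindle pole protein (-2.22 ± 0.11, adjusted p = 1.88e-06), Ttk, a spindle checkpoint kinase (-1.81 ± 0.12, adjusted p = 9.10e-06), Nusap1, a spindle microtubule binder (-1.85 ± 0.10, adjusted p = 3.06e-06), Knl1, a kinetochore scaffold (-1.77 ± 0.19, adjusted p = 1.21e-04), and Ncapg, a condensin subunit (-1.74 ± 0.14, adjusted p = 2.22e-05), were also among the 15 largest falls. The weakest other probe sets gave -0.09 for Aspm, -0.85 for Ttk, -0.39 for Nusap1 and -0.52 for Knl1, so the size of each fall depends on the probe set.

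Among genes of DNA replication, Dscc1, which loads the sliding clamp for sister chromatid cohesion, read 4.27 (KGF) and 5.05 (control) at day 24, against 6.84 (KGF) and 7.06 (control) at day 17 (-2.29 ± 0.21, adjusted p = 4.88e-05), with its other probe set at -0.57. Lrr1, the substrate receptor of a ubiquitin ligase that unloads the replicative helicase, fell by 1.79 (adjusted p = 2.79e-05). Mcm6, a subunit of that helicase, read 7.82 (KGF) and 7.92 (control) at day 24, against 9.36 (KGF) and 9.52 (control) at day 17 (-1.57 ± 0.09, adjusted p = 3.07e-06), and Uhrf1, which carries DNA methylation through replication, fell by 1.51 (adjusted p = 3.96e-06). Other probe sets gave -0.79 to -0.63 for Lrr1 and -1.54 to -0.19 for Mcm6. The median level of the mitosis list was 9.77 (KGF) and 9.63 (control) at day 8, 8.90 (KGF) and 8.97 (control) at day 17 and 7.06 (KGF) and 7.27 (control) at day 24.

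Because the division genes moved together, promoters of 3 of them, the mitosis genes with the largest falls that hold the first motif below, are shown: the 200 bases before the transcription start, from RefSeq on assembly GRCm38.p6, read 5′ to 3′ on the gene's strand. Capitals mark 2 motifs known from promoters of genes active in G2 and mitosis, each on either strand. The first is CCAAT, which appears as ATTGG where it lies on the opposite strand. The second is TTTGAA, the core of the cell cycle homology region, and no match of one overlaps a match of the other in these windows. Mki67 lies at chr7:135716380-135716579 on the minus strand, Bub1 at chr2:127831860-127832059 on the minus strand and Top2a at chr11:99024190-99024389 on the minus strand.
Mki67: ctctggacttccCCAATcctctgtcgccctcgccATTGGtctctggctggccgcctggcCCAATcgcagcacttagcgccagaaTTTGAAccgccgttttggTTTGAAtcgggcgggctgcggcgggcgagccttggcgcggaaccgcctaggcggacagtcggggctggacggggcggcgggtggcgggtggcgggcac
Bub1: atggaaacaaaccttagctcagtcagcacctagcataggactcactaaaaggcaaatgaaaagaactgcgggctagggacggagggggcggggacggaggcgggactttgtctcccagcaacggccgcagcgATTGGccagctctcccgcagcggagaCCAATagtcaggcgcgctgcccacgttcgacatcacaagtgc
Top2a: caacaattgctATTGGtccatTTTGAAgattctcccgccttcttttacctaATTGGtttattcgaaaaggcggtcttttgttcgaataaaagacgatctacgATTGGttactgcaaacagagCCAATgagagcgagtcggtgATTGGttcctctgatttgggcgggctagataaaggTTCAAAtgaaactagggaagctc
The Mki67 window held CCAAT 3 times and TTTGAA 2 times, the Top2a window 5 times and 2 times, and the Bub1 window CCAAT 2 times with no TTTGAA. Over the 250 bases before the start, searched on both strands, CCAAT was found in 13 of the 15 promoters on hand for mitosis genes (86.7%) and in 14 of 19 for DNA replication genes (73.7%), against 34.7% of 18109 promoters of 14452 measured genes. TTTGAA was found in 7 of the 15 mitosis promoters (46.7%) and 1 of the 19 replication promoters (5.26%), against 11.9% of all. A match is a description of the letters and not of a bound site.

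Shh, the hedgehog ligand of gut and lung endoderm, read 5.24 in the KGF and 4.83 in the control culture at day 24, against 6.63 (KGF) and 7.20 (control) at day 17, with both day 24 values below both day 17 values (-1.88 ± 0.21, adjusted p = 1.76e-04). Its other probe set gave -0.10. Of the hedgehog list, 0 of the 14 measured members passed upward, 7 passed downward and 7 did not pass, with a median of -0.33. Its downward count was 4 without the day 24 control array, and its upward count 1 without the day 17 control array. Gli3, a transcription factor of the pathway, fell by 0.96 (adjusted p = 3.25e-04), and the transducer Smo by 0.53 (adjusted p = 0.00107). Other Gli3 probe sets gave -1.09 to -0.23. Frem2 and Fras1 form a complex in embryonic basement membranes, and both were lower on each day 24 array than on either day 17 array. Frem2 read 6.37 (KGF) and 6.44 (control) at day 24, against 8.24 (KGF) and 8.44 (control) at day 17 (-1.94 ± 0.11, adjusted p = 4.11e-06). Fras1 read 7.02 (KGF) and 7.01 (control) at day 24, against 8.59 (KGF) and 8.98 (control) at day 17 (-1.77 ± 0.16, adjusted p = 4.59e-05). Tril, an accessory protein of Toll-like receptors that is also among the 15 largest falls, fell by 2.02 (adjusted p = 1.55e-05).

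Among the other developmental lists, of the Wnt pathway 5 of the 32 measured members passed upward, 7 passed downward and 20 did not pass, with a median of -0.16. The Wnt upward count was 1 without the day 17 control array and 3 without the day 24 control array, and the downward count 3 without the day 17 control array, 4 without the day 17 DCI array, 4 without the day 17 KGF with DCI array and 1 without the day 24 control array. Lef1, a nuclear effector of Wnt signals, fell by 0.93 (adjusted p = 0.00233), with its other probe set at -0.03. Of the BMP pathway, 3 of the 27 measured members passed upward, 6 passed downward and 18 did not pass. Over all genes 11.8% passed upward and 15.8% downward, so the Wnt and BMP counts are given with no reading of the lists. The BMP upward count was 6 without the day 17 control array. The ligand gene Bmp5 fell by 1.20 (adjusted p = 2.60e-04), with other probe sets at -0.38 to -0.03, while Fst, which encodes the activin antagonist follistatin, rose by 1.48 ± 0.15 (adjusted p = 8.11e-05).

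Growth genes of the insulin-like growth factor axis moved both ways, with more falls. Of that list, 5 of the 20 measured members passed upward, 11 passed downward and 4 did not pass, with a median of -0.29 (-0.33 in the KGF pair and -0.31 in the control pair). Igf2, the imprinted fetal growth factor, read 13.84 (KGF) and 13.79 (control) at day 24, against 13.89 (KGF) and 13.90 (control) at day 17, and did not pass (-0.08 ± 0.05, adjusted p = 0.227). Its other probe set, with a lower mean level (8.40 against 13.92), gave -0.60 and passed when each probe set was tested by itself (limma adjusted p = 0.00958). Cdkn1c, an imprinted cell cycle inhibitor, read 10.11 (KGF) and 10.35 (control) at day 24, against 11.46 (KGF) and 11.20 (control) at day 17 and fell (-1.10 ± 0.10, adjusted p = 4.43e-05) beside the genes of cell division. Peg3, an imprinted zinc finger gene, fell by 0.87 (adjusted p = 1.58e-05), with other probe sets at -1.27 to -0.05, and Igf2bp3, a fetal RNA-binding protein, by 0.74 (adjusted p = 2.24e-04), with others at -0.90 to -0.19. Igfbp7 (1.06 ± 0.07, adjusted p = 8.84e-06; other probe sets 0.06 to 1.12) and Igfbp6 (0.84 ± 0.10, adjusted p = 3.42e-04), secreted binding proteins, rose.

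Interferon response genes rose. These genes encode antiviral proteins, and many carry the interferon-stimulated response element in their promoters. Of the list, 15 of the 20 measured members passed upward, 0 passed downward and 5 did not pass, all 20 lay above 0 in both pairs, and the median was 0.67 (0.71 in the KGF pair and 0.53 in the control pair). The upward count was 9 without the day 24 KGF array. Ifit1, which binds viral RNA that lacks host cap methylation, read 7.86 in the KGF and 7.89 in the control culture at day 24, against 5.11 (KGF) and 5.63 (control) at day 17. Both day 24 values stood more than 2 units above both day 17 values (5.69-fold, 2.51 ± 0.19, adjusted p = 1.38e-05). Oasl2, an oligoadenylate synthetase-like protein, read 6.17 (KGF) and 6.23 (control) at day 24, against 3.70 (KGF) and 4.17 (control) at day 17 (2.27 ± 0.18, adjusted p = 2.24e-05). Usp18, which removes the ubiquitin-like protein ISG15, rose by 1.84 ± 0.16 (adjusted p = 3.10e-05), Ifit3, a partner of Ifit1, by 1.68 ± 0.13 (adjusted p = 1.69e-05), and the transcription factor gene Irf7 by 1.01 ± 0.20 (adjusted p = 0.00468). Gbp3, a guanylate-binding protein, rose by 0.87 ± 0.18 (adjusted p = 0.00685), and was 0.50 (adjusted p = 0.0635) without the day 24 KGF array.

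Promoters of 3 of these genes are shown in the same way, chosen as the list genes with the largest differences that hold the motif. Capitals mark the core of the interferon-stimulated response element, 2 copies of GAAA parted by any 2 bases. On the opposite strand it holds TTTC in the same spacing. Ifit1 lies at chr19:34640689-34640888 on the plus strand, Ifit3 at chr19:34583329-34583528 on the plus strand and Gbp3 at chr3:142559844-142560043 on the plus strand.
Ifit1: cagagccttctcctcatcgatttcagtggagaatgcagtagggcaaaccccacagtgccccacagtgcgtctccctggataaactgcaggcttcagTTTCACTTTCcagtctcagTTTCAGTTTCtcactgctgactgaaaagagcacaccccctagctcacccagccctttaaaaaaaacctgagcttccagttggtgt
Ifit3: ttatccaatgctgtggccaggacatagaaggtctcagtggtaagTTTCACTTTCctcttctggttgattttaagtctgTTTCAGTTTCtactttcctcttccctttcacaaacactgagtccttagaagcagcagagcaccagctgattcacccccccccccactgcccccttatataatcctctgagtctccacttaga
Gbp3: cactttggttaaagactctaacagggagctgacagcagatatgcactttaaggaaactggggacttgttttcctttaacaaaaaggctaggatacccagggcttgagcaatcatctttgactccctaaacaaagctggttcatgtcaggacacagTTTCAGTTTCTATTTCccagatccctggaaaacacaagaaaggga
Each window held 2 matches, and those of Gbp3 overlap each other. Over the 250 bases before the start the motif was found in 9 of 19 promoters of 16 list genes (47.4%), against 2.61% of the 18109 promoters of all measured genes.

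Antigen presentation, chemokine and complement genes also rose in part. Of the antigen presentation list, 8 of the 16 measured members passed upward, 0 passed downward and 8 did not pass, with a median of 0.34. H2-K1, a class I heavy chain, read 11.03 (KGF) and 10.99 (control) at day 24, against 9.97 (KGF) and 9.95 (control) at day 17 (1.05 ± 0.06, adjusted p = 3.06e-06), and B2m, the class I light chain, rose by 0.65 ± 0.06 (adjusted p = 2.99e-05). Class I heavy chain genes are near-identical copies, so their probe sets may share signal. Cd74, the class II invariant chain, rose by 1.31 ± 0.18 (adjusted p = 5.90e-04). Of the CC chemokines, 11 of the 16 measured members passed upward, 0 passed downward and 5 did not pass, with a median of 0.66 (0.48 in the KGF pair and 0.87 in the control pair). Ccl8 read 6.29 (KGF) and 7.07 (control) at day 24, against 4.69 (KGF) and 4.53 (control) at day 17 (2.07 ± 0.22, adjusted p = 1.19e-04), and the monocyte attractants Ccl7 and Ccl12 rose by 1.53 ± 0.11 (adjusted p = 9.85e-06) and 1.40 ± 0.19 (adjusted p = 5.29e-04). Ppbp, a platelet and myeloid CXC chemokine, read 8.67 (KGF) and 10.04 (control) at day 24, against 6.28 (KGF) and 6.73 (control) at day 17 (2.85 ± 0.29, adjusted p = 8.92e-05). Of the complement list, 9 of the 14 measured members passed upward, 1 passed downward and 4 did not pass, with a median of 0.77. C1s1, a protease that starts the classical pathway, read 12.00 (KGF) and 11.98 (control) at day 24, against 10.45 (KGF) and 10.76 (control) at day 17 (1.38 ± 0.08, adjusted p = 3.59e-06), and C2 rose by 1.51 ± 0.12 (adjusted p = 2.42e-05). The complement gene that fell did not pass without the day 17 control, the day 24 control or the day 24 KGF array.

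The macrophage and myeloid list had 2 of 29 members higher and 6 lower, with a median of -0.09 (-0.33 in the KGF pair and 0.04 in the control pair). Beside the 11.8% and 15.8% of all genes, these counts are not read as a change of the list. Its median level was 4.74 (KGF) and 4.58 (control) at day 8, 9.52 (KGF) and 9.65 (control) at day 17 and 9.20 (KGF) and 9.63 (control) at day 24, lowest at day 8. Cd14, a receptor for bacterial lipopolysaccharide that epithelia also carry, read 11.12 (KGF) and 10.92 (control) at day 24, against 9.68 (KGF) and 9.65 (control) at day 17 and rose (1.36 ± 0.07, adjusted p = 2.56e-06). Cx3cr1, the fractalkine receptor of macrophages, read 7.81 (KGF) and 8.51 (control) at day 24, against 8.98 (KGF) and 9.01 (control) at day 17, with the day 24 values below those of day 17 (-0.83 ± 0.18, adjusted p = 0.00748). Its difference was -0.71 (adjusted p = 0.0597) without the day 17 KGF array and -0.50 (adjusted p = 0.0848) without the day 24 KGF array, and its other probe set gave -0.18. Ptprc, the leukocyte antigen CD45, did not pass (-0.33 ± 0.15, adjusted p = 0.146), but passed at -0.33 (adjusted p = 0.0475) without the day 24 DCI array and -0.33 (adjusted p = 0.0485) without the day 24 KGF with DCI array. The upward count was 1 without the day 17 control array, 6 without the day 17 KGF array, 1 without the day 24 control array, 4 without the day 24 DCI array and 4 without the day 24 KGF with DCI array, and the downward count 3 without the day 24 KGF array. The 12 B and T lymphocyte markers had no gene past the threshold in either direction. What part any of these cells had in the interferon, chemokine and complement results was not tested.

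Skeletal muscle genes were higher at day 24 mainly in the control pair. Of the list, 14 of the 34 measured members passed upward, 1 passed downward and 19 did not pass, and the median was 0.86, with 0.06 in the KGF pair and 1.31 in the control pair. The median level of the list was 5.19 (KGF) and 5.25 (control) at day 8, 8.38 (KGF) and 6.83 (control) at day 17 and 8.22 (KGF) and 8.26 (control) at day 24. Acta1, skeletal muscle actin, read 12.03 in the KGF and 11.97 in the control culture at day 24, against 10.51 (KGF) and 8.45 (control) at day 17. The day 17 control value was the lowest of the 4 (2.52 ± 0.33, adjusted p = 4.78e-04). Myl1, a myosin light chain, read 11.82 (KGF) and 11.70 (control) at day 24, against 10.63 (KGF) and 8.16 (control) at day 17 (2.37 ± 0.42, adjusted p = 0.00271), and its difference was 1.32 (adjusted p = 1.49e-04) without the day 17 control array. Tnnc2, fast troponin C, read 11.15 (KGF) and 11.08 (control) at day 24, against 10.31 (KGF) and 7.40 (control) at day 17, with the same low day 17 control value (2.26 ± 0.49, adjusted p = 0.00718), and its difference was 1.55 (adjusted p = 0.08) without the day 24 control array. The Tnnc2 difference was 1.08 (adjusted p = 0.00362) without the day 17 control array and 3.44 (adjusted p = 6.09e-06) without the day 17 KGF array. Myog, the myogenic factor myogenin, read 9.82 (KGF) and 9.72 (control) at day 24, against 9.76 (KGF) and 7.24 (control) at day 17, so that the day 17 control value stood apart from the other 3, and it did not pass (1.27 ± 0.42, adjusted p = 0.0511). The Myog difference passed, at 2.30 (adjusted p = 1.86e-05) without the day 17 KGF array and 1.85 (adjusted p = 0.0301) without the day 24 KGF array. Myf6, a late myogenic factor, read 6.55 (KGF) and 6.22 (control) at day 24, against 5.00 (KGF) and 3.83 (control) at day 17 and rose in both pairs (1.97 ± 0.20, adjusted p = 8.83e-05). The upward count was 26 without the day 17 KGF array, and the difference between the pairs was not tested. Asb5, a protein with ankyrin repeats and a SOCS box that was among the 15 largest rises, read 7.05 (KGF) and 6.86 (control) at day 24, against 3.82 (KGF) and 3.34 (control) at day 17 (3.38 ± 0.24, adjusted p = 1.12e-05).

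**Figure D3:**
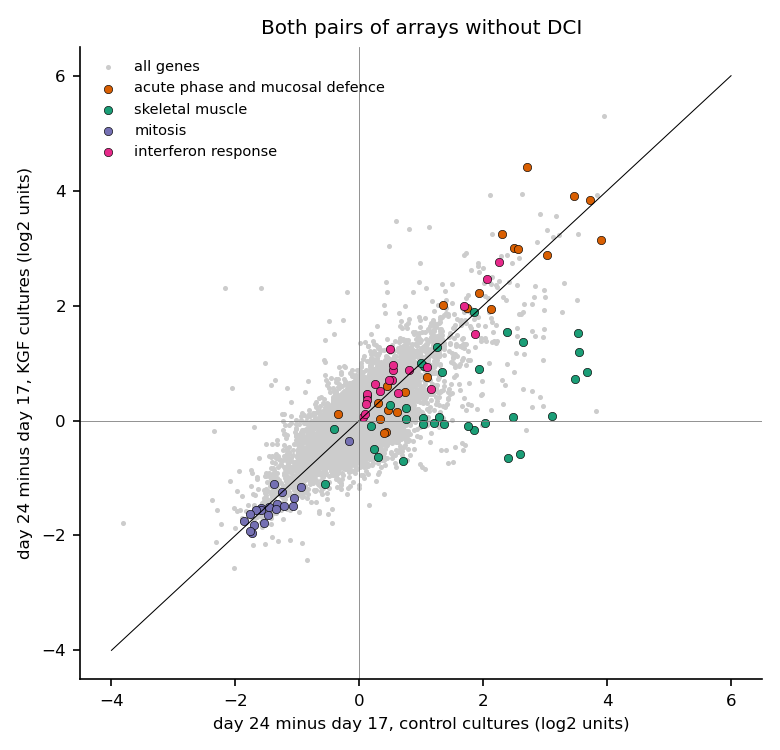
Day 24 minus day 17 in KGF cultures (vertical axis) against control cultures (horizontal axis), both in log2 units, 1 point per gene, with 4 gene lists in colour and the diagonal marking equal change. Mitosis genes lie low on both axes and most acute phase and mucosal defence genes high on both, while skeletal muscle genes spread to the right, with medians of 0.06 in the KGF pair and 1.31 in the control pair.

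Some smooth muscle genes rose, while Myocd, the 1 member of that list that passed downward, fell (-0.96, other probe set 0.11). The cardiac counts are not read as a change of that list, beside the 11.8% of all genes that passed upward and 15.8% downward. Of the cardiac list, 0 of the 17 measured members passed upward, 4 passed downward and 13 did not pass, with a median of -0.13. The cardiac upward count was 3 without the day 17 KGF array, 1 without the day 24 DCI array and 1 without the day 24 KGF with DCI array, and the downward count 2 without the day 17 control array and 2 without the day 24 control array. Tbx20, a cardiac transcription factor, read 6.67 (KGF) and 6.02 (control) at day 24, against 7.56 (KGF) and 7.97 (control) at day 17 (-1.42 ± 0.23, adjusted p = 0.00141; -0.90 (adjusted p = 0.00213) without the day 24 control array), with other probe sets at -1.11 to -0.26, and Myl2, the ventricular light chain, fell by 0.78 (adjusted p = 0.00382). Of the smooth muscle list, 7 of the 12 measured members passed upward, 1 passed downward and 4 did not pass, with a median of 0.40, and the upward count was 4 without the day 24 KGF array. Aoc3, an amine oxidase of vascular smooth muscle and adipocytes, read 6.60 (KGF) and 6.79 (control) at day 24, against 4.84 (KGF) and 4.95 (control) at day 17 (1.80 ± 0.16, adjusted p = 4.24e-05), while Acta2, smooth muscle actin, did not pass (0.07 ± 0.10, adjusted p = 0.63) but passed at 0.28 (adjusted p = 0.0146) without the day 17 KGF array.

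Several genes of matrix proteases, their inhibitors and the matrix rose. Mmp3, the matrix protease stromelysin 1, read 7.54 in the KGF and 7.48 in the control culture at day 24, against 3.61 (KGF) and 3.63 (control) at day 17. The KGF and control values of each day were nearly equal, and the gene passed (3.89 ± 0.16, adjusted p = 7.12e-07). Mmp13, a collagenase, read 4.66 (KGF) and 6.08 (control) at day 24, against 2.56 (KGF) and 2.57 (control) at day 17, with a larger day 24 value in the control culture (2.80 ± 0.34, adjusted p = 2.78e-04). Whether the day 17 values of Mmp3 and Mmp13 lay above background is not known, so no fold is given. Timp1, an inhibitor of these proteases, rose by 1.12 ± 0.09 (adjusted p = 1.70e-05). Of that list, 12 of the 19 measured members passed upward, 1 passed downward and 6 did not pass, with a median of 0.42, and the member that fell did not pass without the day 24 KGF array. Of 20 collagens, 7 rose and 2 fell, with the basement membrane chain gene Col4a1 at 1.00 ± 0.13, adjusted p = 4.01e-04 and Col15a1 at 1.22 ± 0.12, adjusted p = 8.27e-05. The largest change of that list in either direction was a fall, in Col13a1 (-1.47). The collagen downward count was 1 without the day 17 control array, 1 without the day 17 DCI array, 1 without the day 17 KGF with DCI array, 1 without the day 24 control array and 1 without the day 24 KGF array. Of 20 fibroblast and mesenchyme genes, 7 rose and 3 fell, led by Mfap5, a microfibril glycoprotein, which read 8.75 (KGF) and 8.82 (control) at day 24, against 7.20 (KGF) and 6.65 (control) at day 17 (1.86 ± 0.15, adjusted p = 2.07e-05). Dpt, the matrix protein dermatopontin, rose by 1.20 ± 0.07 (adjusted p = 4.11e-06), and Pdgfra, a growth factor receptor of mesenchyme, by 0.95 ± 0.06 (adjusted p = 5.06e-06).

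Of the adipocyte list, 7 of the 18 measured members passed upward, 2 passed downward and 9 did not pass, with a median of 0.41 (0.29 in the KGF pair and 0.48 in the control pair), and the downward count was 1 without the day 17 control array and 1 without the day 24 KGF array. Cidea, a lipid droplet protein, rose by 1.70 ± 0.15 (adjusted p = 4.85e-05), and Fabp4, a fatty acid carrier, by 0.70 ± 0.07 (adjusted p = 8.11e-05). Adipoq, which encodes the adipocyte hormone adiponectin, read 2.99 (KGF) and 6.55 (control) at day 24, against 2.82 (KGF) and 2.72 (control) at day 17. Only the day 24 control value was high, and the difference did not pass (adjusted p = 0.111). It passed, at 3.98 (adjusted p = 4.86e-04) without the day 24 KGF array.

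Of the visceral endoderm and liver list, 6 of the 26 measured members passed upward, 5 passed downward and 15 did not pass, with a median of 0.08. Beside the 11.8% and 15.8% of all genes, these counts are not read as a change of the list. Apoa4, an apolipoprotein of intestine and liver, read 9.59 (KGF) and 10.04 (control) at day 24, against 7.01 (KGF) and 8.11 (control) at day 17, with both day 24 values above both day 17 values (2.26 ± 0.17, adjusted p = 1.43e-05), and Apob, the main lipoprotein scaffold, rose by 0.85 ± 0.11 (adjusted p = 3.26e-04). Alb, which encodes serum albumin, read 10.52 (KGF) and 10.57 (control) at day 24, against 11.53 (KGF) and 11.89 (control) at day 17 and fell (-1.17 ± 0.11, adjusted p = 5.04e-05). Serpina1b, an antitrypsin, fell by 1.07 (adjusted p = 3.89e-04), and belongs to a family of near-identical genes. Serpina6, which encodes the liver's corticosteroid-binding globulin, had the largest fall of all named genes and read 4.40 (KGF) and 3.16 (control) at day 24, against 6.18 (KGF) and 6.98 (control) at day 17 (-2.80 ± 0.37, adjusted p = 4.55e-04).

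Of the endothelium list, 5 of the 20 measured members passed upward, 2 passed downward and 13 did not pass, with a median of 0.13, and the upward count was 3 without the day 17 KGF array and 2 without the day 24 KGF array. Kdr, the main vascular growth factor receptor, fell by 1.13 (adjusted p = 8.22e-04) while Vegfa rose. Lyve1, a hyaluronan receptor of lymphatic endothelium and of some macrophages, rose by 1.21 ± 0.23 (adjusted p = 0.00351), with its other probe set at 0.54, and Car4, a membrane carbonic anhydrase of capillaries, by 0.71 ± 0.13 (adjusted p = 0.00366). Pecam1, a junction protein of all endothelium, did not pass (0.12 ± 0.22, adjusted p = 0.729). Of 14 erythroid genes 1 fell and none rose, which is not read as a change beside the 15.8% and 11.8% of all genes. Hbb-y, of the same list, did not pass with the probe set used (-0.39). Its other probe sets gave -2.71 and -2.48 and passed when each probe set was tested by itself, so its count depends on the probe set. The gene that fell, embryonic globin Hbb-bh1, read 4.54 (KGF) and 4.48 (control) at day 24, against 4.73 (KGF) and 6.82 (control) at day 17, so that only the day 17 control value was high, and without the day 17 control array its difference was -0.56. It did not pass either without the day 24 control array or without any 1 of the 4 arrays with DCI, and without the day 17 KGF array 2 erythroid genes passed downward.

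Over all genes 11.8% passed upward and 15.8% downward, so the list counts in this paragraph are not read as changes of the lists. Of 22 neuronal genes none rose and 4 fell, with a median of -0.16 (-0.42 in the KGF pair and 0.10 in the control pair). Among those that fell was Nefl, a neurofilament (-1.01 ± 0.14, adjusted p = 7.10e-04). The neuronal upward count was 1 without the day 17 KGF array, 2 without the day 24 KGF array, 1 without the day 24 DCI array and 1 without the day 24 KGF with DCI array, and the downward count 2 without the day 24 KGF array. A further 11 lists (pancreas, kidney, trophoblast, melanocyte, bone, cartilage, glia, mast cell and granulocyte, Hox genes, cytochrome P450, and sterol and fatty acid synthesis) held 177 measured members, of which 19 rose and 18 fell, with list medians between -0.10 and 0.24. The falls numbered 11 without the day 17 control array and 12 without the day 24 KGF array. Among the falls were Podxl, a sialomucin of podocytes and of stem cells (-1.60 ± 0.11, adjusted p = 1.18e-05; other probe set -0.57), Col9a1, a cartilage collagen (-1.71 ± 0.24, adjusted p = 7.27e-04; other probe set -0.17), and Hoxc4, a homeobox gene of the neck and upper trunk (-1.09 ± 0.15, adjusted p = 5.61e-04).

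Hypoxia and glycolysis genes rose. Of that list, 15 of the 20 measured members passed upward, 0 passed downward and 5 did not pass, all 20 lay above 0 in both pairs, and the median was 0.44 (0.48 in the KGF pair and 0.49 in the control pair). Adm, which encodes the vasodilator peptide adrenomedullin, read 10.77 (KGF) and 10.59 (control) at day 24, against 8.34 (KGF) and 8.34 (control) at day 17, a 5.08-fold rise with equal day 17 values (2.34 ± 0.10, adjusted p = 8.41e-07). Car9, a carbonic anhydrase induced by low oxygen, read 9.36 (KGF) and 8.95 (control) at day 24, against 7.27 (KGF) and 7.55 (control) at day 17 (1.75 ± 0.14, adjusted p = 2.24e-05), and Egln3, an oxygen-sensing hydroxylase, rose by 1.22 ± 0.07 (adjusted p = 4.54e-06). Culture density and oxygen are not given in the labels.

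Oxidative phosphorylation genes moved both ways. Of 18 oxidative phosphorylation genes 5 rose and 6 fell, with a median of -0.06. That upward count was 3 without the day 24 control array and 3 without the day 24 KGF array, and the downward count 3 without the day 24 control array. The 10 housekeeping genes had a median of -0.09, 2 higher and 1 lower, beside 11.8% higher and 15.8% lower of all genes. B2m, described above, was one of the rises, and Hprt, a purine salvage enzyme, the other (0.23 ± 0.06, adjusted p = 0.0188). The Hprt difference was 0.17 (adjusted p = 0.134) without the day 17 KGF array, 0.26 (adjusted p = 0.0596) without the day 24 control array and 0.20 (adjusted p = 0.141) without the day 24 KGF array. The single fall was in Sdha, a succinate dehydrogenase subunit (-0.30 ± 0.07, adjusted p = 0.013; other probe set -0.14 to -0.02), whose difference was -0.22 (adjusted p = 0.116) without the day 17 control array, -0.28 (adjusted p = 0.0896) without the day 24 control array and -0.32 (adjusted p = 0.058) without the day 24 KGF array. Without the day 17 KGF array 2 housekeeping genes passed downward.

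Genes of glucocorticoid response and FGF genes rose in part. Of the glucocorticoid response list, 11 of the 18 measured members passed upward, 1 passed downward and 6 did not pass, with a median of 0.36, and the upward count was 6 without the day 24 KGF array. Hsd11b1, the enzyme that regenerates active glucocorticoid within cells, read 9.44 (KGF) and 9.15 (control) at day 24, against 6.62 (KGF) and 6.57 (control) at day 17 (6.49-fold, 2.70 ± 0.09, adjusted p = 3.53e-07), and Dusp1, a phosphatase of stress kinases, read 11.47 (KGF) and 11.49 (control) at day 24, against 9.56 (KGF) and 9.72 (control) at day 17 (1.84 ± 0.07, adjusted p = 7.12e-07). Fkbp5, a co-chaperone of the glucocorticoid receptor that the hormone induces, went the other way and read 7.20 (KGF) and 7.04 (control) at day 24, against 7.70 (KGF) and 7.99 (control) at day 17 (-0.72 ± 0.12, adjusted p = 0.00213), with other probe sets at -0.20 to -0.08. The list holds genes that other signals also induce, and the endogenous hormone was not measured.

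Of the FGF list, 6 of the 14 measured members passed upward, 1 passed downward and 7 did not pass, with a median of 0.18. The upward count was 3 without the day 17 control array, 3 without the day 17 KGF array, 3 without the day 24 control array and 2 without the day 24 KGF array, and the gene that fell did not pass without the day 17 control or the day 24 KGF array. Fgf7, the gene of KGF itself, read 3.63 (KGF) and 3.16 (control) at day 8, 4.78 (KGF) and 3.97 (control) at day 17 and 6.13 (KGF) and 6.17 (control) at day 24. The 2 day 24 values were nearly equal, with and without added KGF, and lay above both day 17 values (1.78 ± 0.24, adjusted p = 5.26e-04). Whether the day 17 values of Fgf7 lay above background is not known, so no fold is given.

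**Figure D4:**
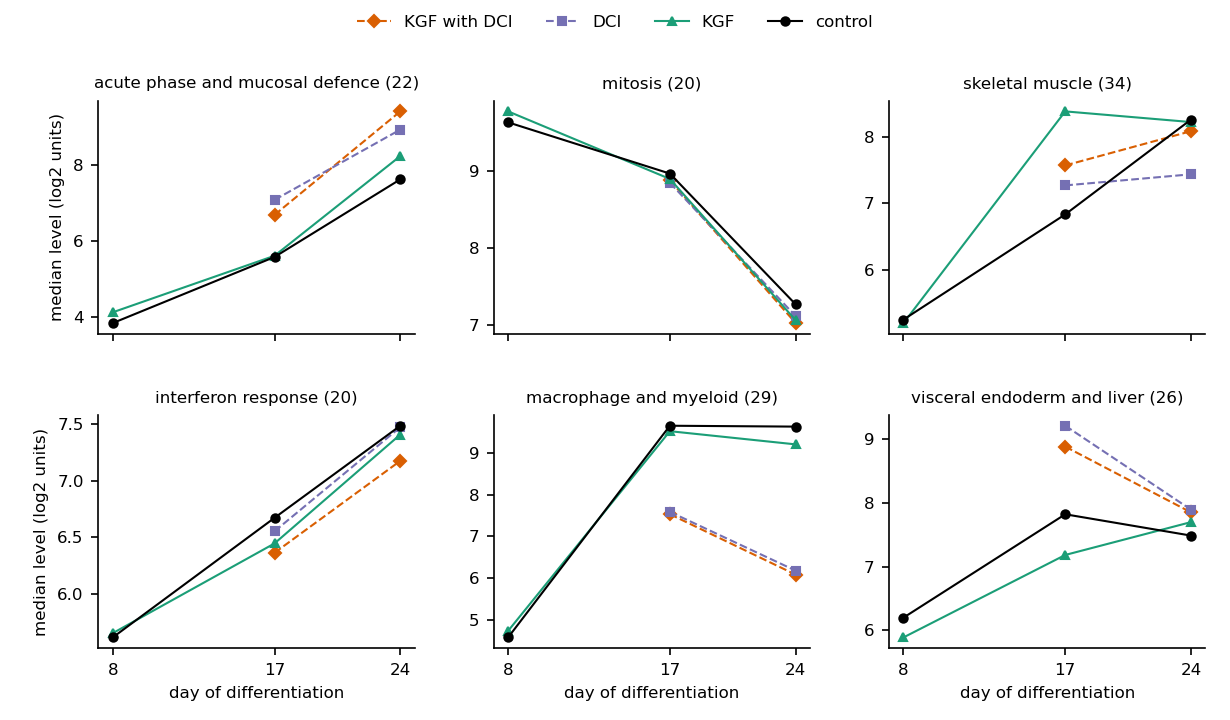
Median log2 level of the measured members of 6 gene lists (number in parentheses) at days 8, 17 and 24, 1 array per point, for KGF with DCI (orange diamonds), DCI (purple squares), KGF (green triangles) and control (black circles), with DCI arrays at days 17 and 24 only. The macrophage median at day 24 is 6.09 (KGF with DCI) and 6.18 (DCI), against 9.20 (KGF) and 9.63 (control), while the mitosis lines run downward in all 4 treatments.

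Whether the same days differed by another amount in cultures with DCI was tested with the day by DCI interaction, the difference with DCI minus that without. It passed for 456 genes (2.51%), 97 with a higher difference with DCI (0.533%) and 359 with a lower one (1.97%), and 245 of the 456 had also passed without DCI. The count was 170 without the day 17 DCI array, 143 without the day 17 KGF with DCI array, 172 without the day 24 KGF array and 181 without the day 24 KGF with DCI array. The mitosis median was -1.60 with DCI and -1.52 without it, and no mitosis gene passed the interaction, which does not show that they changed alike. The median standard error of an interaction was 0.18. For the acute phase and mucosal defence list the medians were 1.87 with and 1.76 without DCI, and 4 members passed, with 1 member without the mean trend and 2 without the day 17 KGF with DCI array. For interferon response they were 0.55 with and 0.67 without DCI, and 0 members passed. Among the leading rises, Lcn2 (-0.59 ± 0.09, adjusted p = 0.00917), Hp (-0.87 ± 0.12, adjusted p = 0.00518), Cst6 (-1.63 ± 0.35, adjusted p = 0.0421) and Ppbp (-2.63 ± 0.40, adjusted p = 0.0103) had smaller differences with DCI. Hp passed whichever array was left out, Ppbp did not pass without the day 17 KGF with DCI array, and Lcn2 passed in 5 of 8 such fits and Cst6 in 2 of 8.

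Liver, macrophage and endothelial lists held many of the members past the interaction. Of the visceral endoderm and liver list, 17 of 26 members passed, all lower with DCI, and the list median was -1.02 with DCI, against 0.08 without it. The count of 17 was 9 without the day 17 KGF with DCI array and 11 without the day 24 KGF array or without the mean trend in the variance. Apob had a difference of -2.07 with DCI and 0.85 without it (interaction -2.92 ± 0.15, adjusted p = 7.06e-05). Apoa4 differed in the same way (-2.58 ± 0.24, adjusted p = 8.20e-04). Cubn, which encodes an endocytic receptor of yolk sac, kidney and intestine, read 5.64 (KGF with DCI) and 5.26 (DCI) at day 24, against 7.25 (KGF with DCI) and 7.01 (DCI) at day 17 with DCI. Without DCI it read 6.91 (KGF) and 6.74 (control) at day 24, against 5.51 (KGF) and 5.99 (control) at day 17. The difference without DCI was 0.70 (adjusted p = 0.0152) without the day 17 KGF array. The day difference was downward with DCI and upward without it (-2.75 ± 0.27, adjusted p = 0.00109).

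Of the macrophage list 16 of 29 passed, all lower with DCI, with medians of -1.13 with and -0.09 without DCI. The count of 16 was between 11 and 18 when 1 array was left out and 9 without the mean trend. At day 17 the median level of these markers was 7.53 (KGF with DCI) and 7.59 (DCI), against 9.52 (KGF) and 9.65 (control). The chemokine Ccl12 had a difference of -0.76 with DCI and 1.40 without it (-2.16 ± 0.27, adjusted p = 0.00325).

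Of the endothelium list 8 of 20 passed, all lower with DCI, with medians of -0.93 with and 0.13 without DCI. That count was 5 without the day 17 KGF array, the day 17 DCI array, the day 24 KGF array or the day 24 KGF with DCI array, and 3 without the day 17 KGF with DCI array. It was also 5 with all 10 arrays or without the mean trend, and 4 with probe sets averaged per gene. Car4 had the largest interaction of the named genes (-3.20 ± 0.19, adjusted p = 1.29e-04). It read 4.23 (KGF with DCI) and 4.61 (DCI) at day 24, against 6.96 (KGF with DCI) and 6.86 (DCI) at day 17 with DCI. Without DCI it read 8.07 (KGF) and 8.11 (control) at day 24, against 7.35 (KGF) and 7.41 (control) at day 17. Lyve1 differed next most (-2.999 ± 0.32, adjusted p = 0.00153).

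The 5 named genes with the largest difference in the other direction are products of digestive and secretory epithelium or protease inhibitors. Pgc, which encodes gastric pepsinogen C, read 6.72 (KGF with DCI) and 7.40 (DCI) at day 24, against 4.31 (KGF with DCI) and 4.26 (DCI) at day 17 with DCI. Without DCI it read 4.21 (KGF) and 4.03 (control) at day 24, against 4.10 (KGF) and 4.06 (control) at day 17, nearly level, and the interaction was 2.74 ± 0.29 (adjusted p = 0.00153). Gkn3, a gastric secreted protein, had a difference of 3.48 with DCI and 1.20 without it (2.28 ± 0.31, adjusted p = 0.00536), where it was 0.71 (adjusted p = 0.00552) without the day 17 KGF array. Zg16, a lectin of goblet cells and of pancreatic secretory granules (2.28 ± 0.29, adjusted p = 0.00419), Fam3b, a secreted protein of pancreas and intestine (2.12 ± 0.23, adjusted p = 0.00191), and Ctla2a, a cysteine protease inhibitor (1.89 ± 0.15, adjusted p = 4.31e-04), were the others. Each of these 5 interactions passed whichever array was left out, as did those of Apob, Apoa4, Cubn, Ccl12, Car4 and Lyve1.

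**Figure D5:**
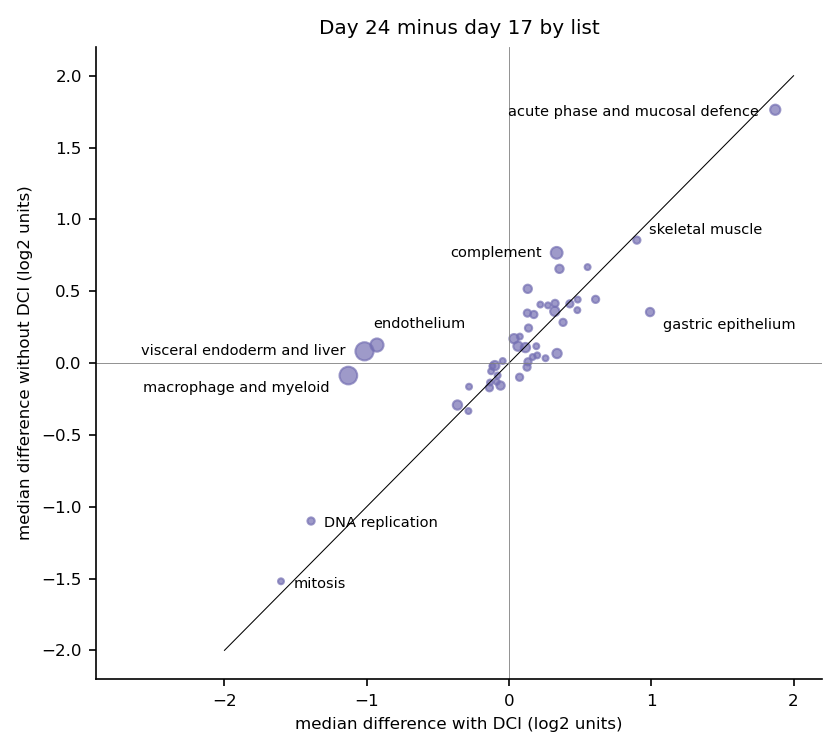
Median day 24 minus day 17 difference of each of the 48 gene lists with DCI (horizontal axis) and without DCI (vertical axis), in log2 units, with point area growing with the number of members past the interaction and the diagonal marking equal change. Liver (-1.02 with and 0.08 without DCI), macrophage (-1.13 and -0.09) and endothelium (-0.93 and 0.13) lie far to the left of the diagonal.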

How the data were processed

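RNA of mouse embryonic stem cell cultures was labelled with a one-cycle kit and hybridised to Affymetrix arrays, 1 array per condition, per the labels' protocols. The deposited values are log2 expression per probe set made by the authors with RMA, per the submitters' processing notes; probe intensities are not used here, so the number of arrays limits the precision. RMA makes the distributions of the arrays it is run on alike, so a shift shared by most genes would be reduced. Each gene symbol was represented by its brightest probe set, taken by the mean of all 10 arrays, leaving 18193 genes, and multiple probe sets of one gene did not always match.

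The day effect without DCI was fitted with limma 3.58.1 in R 4.3.3 on the 8 arrays of days 17 and 24, with terms for day, DCI, their interaction and KGF, a mean trend in the variance, and Benjamini-Hochberg adjustment over all genes at 0.05. In the full fit the 4 arrays with DCI enter only the estimate of spread and the interaction. Where an array without DCI is left out, the KGF term draws on the arrays with DCI as well. The day difference of such a fit therefore rests in part on them. The labels give no batch, date or replicate number, and pairing by KGF status is part of the fit. On simulated data for the day difference with 200 of 18193 genes changed, a log2 change of 0.5 was called in 37% of changed genes and changes of 1 and 2 in 100%, with 10.8%, 10.7% and 5.2% of calls false. For the interaction a change of 1 was called in 79.5% and of 2 in 100%, with 8.6% and 10.7% of calls false. All these false shares lay above the 0.05 threshold. The simulated noise was independent between arrays and genes, and far fewer genes were changed than the 5008 called in the data. The shares therefore need not hold for the data.

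Genes and the 48 gene lists were chosen with earlier results of these data known. A rule gave 314 genes, first the 15 largest rises and 15 largest falls. These had passed, moved the same way in both pairs and reached the median of all values on at least 1 of the 4 arrays. Added were a fixed set of 26 markers, up to 6 members of each list that differed most, and the 5 largest interactions each way. Of the 314 genes 136 are described, and no rule fixed which. Hbb-y, Cdx2, Fabp1, Myocd and Col13a1, also from the rule, are named beside them for contrast and are not counted in the 136. Genes from outside the rule are stated as such. Left out above were, for example, the fixed markers Ttr, Col1a1 and Afp. Afp rose where Alb fell (0.45 ± 0.13, adjusted p = 0.0305), but its other probe sets, at 0.20 to 0.33, did not pass when tested by themselves. Its difference ran from 0.19 to 0.71 with 1 array left out, and its interaction was -1.61 (adjusted p = 0.00233). Promoter sequences are those of RefSeq on GRCm38.p6. Alternatives were other sets of arrays, no mean trend, a robust prior, a filter on the lowest 40% of genes, probe sets averaged per gene, all probe sets kept apart, a second quantile normalization, a KGF by day term, other thresholds, and each array left out.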

Additional observations from a re-analysis of the deposited data

Results flagged for a closer look

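The difference between days 24 and 17 was not the same size with and without DCI for 456 genes by the interaction test of limma. Genes described above that are among them are given here with their interaction in log2 units, the difference with DCI minus that without. Afp (-1.61) and Fabp1 (-1.75), mentioned only briefly above, also passed and are not counted below. The larger ones toward lower with DCI were Car4 (-3.20), Lyve1 (-2.999), Apob (-2.92), Cubn (-2.75), Ppbp (-2.63), Apoa4 (-2.58), Mmp13 (-2.48) and Ccl12 (-2.16). Smaller ones were Cd74 (-1.64), Cst6 (-1.63), Pecam1 (-1.63), Ptprc (-1.25), Serpina1b (-1.21), Hsd11b1 (-1.12), Dpt (-1.08), Hp (-0.87), Klf4 (-0.77) and Lcn2 (-0.59). Toward higher with DCI were Pgc (2.74), Gkn3 (2.28), Zg16 (2.28), Fam3b (2.12), Ctla2a (1.89) and Cidea (1.30). With 1 array left out, Lcn2 passed in 5 of 8 fits, Cst6 and Pecam1 in 2, Mmp13, Cidea and Serpina1b in 4, Cd74 and Ptprc in 6 and Ppbp in 7, and the other 15 genes passed in all 8.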

How the results depend on the processing

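Without replicates, each call rests on 2 differences between single arrays and on a spread shared with the cultures given DCI, so precision is set by how few arrays there are. The 5008 genes past the threshold became 3717 with the 4 arrays without DCI alone, 4395 with all 10 arrays, 3908 without the mean trend, 5066 with a robust prior, 4654 without the lowest 40% of genes, 3982 with probe sets averaged per gene, 4920 after a second quantile normalization, 6346 at an adjusted p under 0.10 and 5649 with a KGF by day term. With a 2-fold difference in addition 682 remained, 408 higher and 274 lower. Leaving out 1 array gave between 2980 and 4987 genes, between 1239 and 2122 higher and between 1593 and 2865 lower. The 456 interaction genes became 294 with all 10 arrays, 138 without the mean trend and 223 with probe sets averaged per gene, and between 143 and 454 with 1 array left out. Of all genes called, 84 had the opposite direction with probe sets averaged per gene, none of them a named gene. In these alternatives the cause of each change was not tested.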

Other observations

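Within the complement list, the components split by the day difference in cultures with DCI. Of 14 members, 6 passed the interaction, all lower with DCI: C1qa, C1qb and C1qc, the chains of the recognition molecule C1q that macrophages make, Cfp, which encodes properdin, and the receptor genes C5ar1 and C3ar1. All but C5ar1 were named after their values were seen. The count of 6 was 3 with a robust prior, and the C5ar1 interaction passed in 4 of 8 fits that left out 1 array. The differences of the 6 genes with DCI lay between -2.07 and -0.20, against differences without DCI between -0.08 and 0.91. The list median was 0.34 with DCI and 0.77 without it, beside the macrophage medians of -1.13 and -0.09, and the part of macrophage number in it was not tested.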
